A study of Mus musculus with 86 samples.

Results

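Of the 20175 probes counted in mouse skin, 244 were lower 24 h after UVB in the epithelial areas of the epidermis and higher at the same time in the epithelial areas of the deep dermis. These probes were chosen by their measured levels. On the CPM scale, a probe's share of all counts in parts per 1e6, averaged over 3 mice, a member had to reach 60 CPM or more at 0 h in both epithelial compartments, to stand at 24 h at no more than 0.67 times its 0 h level in the epidermis, and to stand at 24 h at 1.5 times or more in the deep dermis. The 60 CPM minimum was met by 2188 probes, called eligible here, so the members are 11.2% of them. The study exposed the back of female C57BL/6 wild type mice aged 12 to 16 weeks to 500 mJ/cm2 of UVB (290 to 320 nm), after shaving and under isoflurane, and took biopsies at 0, 6 and 24 h. All groups share the strain, the sex and the exposed site, and the labels give the numbers of the same 3 mice (208, 210 and 219) at every time. Counts come from GeoMx spatial profiling, in which barcodes released from a chosen area of a section, called a segment, are sequenced and counted. Each segment was stained as PanCK or CD45 positive and placed in a layer, which gave 85 segments in PanCK epidermis, PanCK deep dermis, CD45 epidermis, CD45 deep dermis and CD45 adipose.

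Pan-cytokeratin antibodies (PanCK) stain epithelial cells. In the epidermis these are the keratinocytes of the surface, and in the deep dermis of haired skin the epithelium is found in hair follicles and their glands. CD45 is a surface protein of leukocytes, and in mouse epidermis resident leukocytes include Langerhans cells and T cells. UVB is absorbed mostly in the epidermis, where it damages DNA and starts an inflammatory response, and it reaches deeper layers less. The deposited files do not pair the probe identifiers with genes, so the probes stand under their identifiers, no role is given to a member, and the labelled cell types could not be checked against their marker genes.

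The mouse is the replicate, so all segments that a mouse gave in a compartment at a time were added up before scaling. Totals ran from 4244 to 256121 counts per segment, and 3 mice stand behind each group, or 2 for adipose at 6 h. A member's level is a share of the counts of its sum, so a level can be lower because other probes took more counts. A segment can hold several cell types, and fewer cells of a type and less RNA per cell cannot be told apart. The 5000 probes with the lowest share in deep dermis and adipose, called floor probes here, bear on this. They held 16.5% of counts at 24 h against 9.38% at 0 h in PanCK epidermis, and 16.6% at 24 h against 12.9% at 0 h in CD45 epidermis. In PanCK deep dermis they held 10.0% at 24 h and 10.1% at 0 h, and in CD45 deep dermis 12.2% at 24 h and 10.8% at 0 h.

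The epidermal condition was common and the deep dermal one was not. Among eligible probes 1254 (57.3%) met the epidermal ratio and 440 (20.1%) met the deep dermal ratio, and 1010 met the first alone and 196 the second alone. The members are 55.5% of the probes that met the deep dermal ratio and 19.5% of those that met the epidermal one, so a lower epidermal level was about as frequent among probes higher in deep dermis (55.5%) as among all eligible probes (57.3%). The last member inside the epidermal threshold had a ratio of 0.669 and the first probe outside 0.671. In deep dermis these values were 1.502 inside and 1.496 outside. In all, 115 members (47.1%) lay within about 10% of either ratio threshold.

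The separation of 24 h from 0 h was not equally firm for every member. In PanCK epidermis 215 of 244 members were lower at 24 h in 3 of 3 mice, and in 193 the 3 mice at 24 h lay below the 3 mice at 0 h without overlap, which was the case for 48.2% of eligible probes. In PanCK deep dermis 204 members were higher in 3 of 3 mice, and 172 did not overlap, against 16% of eligible probes. Both separations held in 135 members, against 8.27% of eligible probes. These shares use the same values as the choice and are a description. The counts behind them were low for many members. The median member had 24 counts over the 3 mice in PanCK epidermis at 24 h (lowest 7) and 38.5 in PanCK deep dermis at 0 h (lowest 18).

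A mouse left out of the choice gives a view that the choice did not use. With the rule applied to the other 2 mice, 213 probes were chosen without mouse 208, 205 without mouse 210 and 286 without mouse 219, of which 146, 157 and 181 are members. In the left-out mouse 208, 77.0% of the chosen probes were both lower at 24 h in PanCK epidermis and higher in PanCK deep dermis, against 40.4% of the probes eligible in the other 2 mice. In mouse 210 the pair of directions held for 80.5% of chosen and 42.1% of eligible probes. In mouse 219 it held for 62.6% of chosen and 36.9% of eligible probes. The pair of directions was thus more frequent among chosen than eligible probes in each left-out mouse and least frequent in mouse 219.

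Added together, the members took a changing share of all counts. In PanCK epidermis their summed share averaged 6.99% ± 0.76 at 0 h, then 5.83% ± 0.38 at 6 h, and 2.97% ± 0.21 at 24 h (SD, n = 3 each). Single mice (208, 210 and 219) had 7.73%, 7.02% and 6.22% at 0 h, 5.41%, 5.93% and 6.14% at 6 h and 2.93%, 2.78% and 3.19% at 24 h. The members' share of PanCK deep dermis averaged 3.94% ± 0.26 at 0 h, then 5.82% ± 1.08 at 6 h, and 7.90% ± 0.59 at 24 h. Here the mice had 3.81%, 4.23% and 3.77% at 0 h, 4.95%, 5.49% and 7.03% at 6 h and 7.79%, 8.54% and 7.38% at 24 h. The share was larger in the epidermis at 0 h and in the deep dermis at 24 h in every mouse. The direction of each change from 0 h to 24 h is fixed by the choice of members, so these shares are a description. In the mice left out of the choice, the chosen probes held 2.82% in PanCK epidermis and 6.73% in PanCK deep dermis at 24 h, against 6.79% and 3.99% at 0 h, in mouse 208. Mouse 210 had 2.25% and 6.78% at 24 h, against 5.46% and 3.54% at 0 h, and mouse 219 had 4.01% and 8.12% at 24 h, against 7.38% and 5.03% at 0 h. The layers thus changed places in each left-out mouse, and they also did so for the probes eligible in the other 2 mice. In mouse 208 these held 26.8% in PanCK epidermis and 39.4% in PanCK deep dermis at 24 h, against 51.3% and 38.4% at 0 h. Mouse 210 had 25.4% and 40.3% at 24 h for them, against 44.8% and 38.8% at 0 h. Mouse 219 had 28.3% and 37.5% at 24 h, against 44.8% and 40.3% at 0 h. For single members, by the same choice, the median ratio of PanCK deep dermis over PanCK epidermis was 0.723 at 0 h and 2.75 at 24 h, with 23 members higher in deep dermis at 0 h and 243 at 24 h. Part of the low epidermal level at 24 h lay close to the floor. At 24 h 76 members were under 2 times the floor probes' mean in PanCK epidermis (32.9 CPM at 24 h, 18.8 CPM at 0 h), against 0 at 0 h, and in PanCK deep dermis 0 members were that low at either time.

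The 6 h biopsies split the members by their course. In PanCK epidermis 197 members stood between their 24 h and 0 h levels at 6 h, 39 were at or above 0 h and 8 at or below 24 h, and 52 had already passed the ratio of 0.67. In PanCK deep dermis 160 stood between the 2 levels, 57 were at or below 0 h and 27 at or above 24 h, and 88 had passed the ratio of 1.5. Only 13 of the 244 members had passed both ratios by 6 h, while 149 were already below their 0 h level in epidermis and above it in deep dermis. The median ratio to 0 h was 0.800 at 6 h and 0.512 at 24 h in PanCK epidermis, and 1.36 at 6 h and 1.83 at 24 h in PanCK deep dermis. For eligible probes the 6 h medians were 0.826 in PanCK epidermis and 0.909 in PanCK deep dermis. Below 0 h at 6 h in PanCK epidermis were 84.0% of members and 77.1% of eligible probes. Above 0 h at 6 h in PanCK deep dermis were 76.6% of members and 41.5% of eligible probes. These ratios use the 0 h levels that also chose the members and are a description.

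The members differed widely among themselves. Their 0 h means ran from 60.1 to 3664 CPM in PanCK epidermis and from 60.2 to 1216 CPM in PanCK deep dermis, with 24 h to 0 h ratios from 0.116 to 0.669 and from 1.502 to 8.47. Among the 181 members that moved the stated way in 3 of 3 mice in both compartments, the 2 lowest epidermal ratios and the 2 highest deep dermal ratios of other members were followed, a choice made by these values.

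The lowest epidermal ratio among them was that of RTS0063747. In PanCK epidermis its 3 mice (208, 210 and 219 throughout) had 269, 205 and 242 CPM at 0 h, 84.0, 152 and 146 CPM at 6 h, and 34.6, 62.6 and 20.1 CPM at 24 h. Its deep dermal PanCK levels were 96.5, 150 and 66.7 CPM at 0 h, 58.4, 60.7 and 64.4 CPM at 6 h, and 374, 242 and 274 CPM at 24 h. Every 24 h value in the epidermis was thus below every earlier one, and in the deep dermis the 3 mice were high only at 24 h. The epidermal 24 h values rest on 12 counts in all, and their mean of 39.1 CPM was near the floor probes' mean of 32.9 CPM. RTS0065630 had 1212, 1066 and 932 CPM at 0 h, 613, 742 and 781 CPM at 6 h and 173, 242 and 231 CPM at 24 h in PanCK epidermis. Its deep dermal PanCK levels were 167, 384 and 217 CPM at 0 h, 73.0, 247 and 245 CPM at 6 h and 374, 489 and 386 CPM at 24 h. Its epidermal times did not overlap, whereas in the deep dermis mouse 210 at 0 h stood above mouse 208 at 24 h.

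The largest deep dermal ratio belonged to RTS0081318. It had 263, 156 and 33.4 CPM at 0 h, 1693, 1574 and 966 CPM at 6 h and 1446, 2035 and 356 CPM at 24 h in PanCK deep dermis. In PanCK epidermis it had 499, 568 and 305 CPM at 0 h, 361, 483 and 280 CPM at 6 h and 92.4, 152 and 101 CPM at 24 h. All 6 h and 24 h values in the deep dermis were above all 0 h values, while in the epidermis only 24 h stood apart, and mouse 219 was the lowest in deep dermis at every time. RTS0068815, an abundant probe, had 211, 397 and 284 CPM at 0 h, 1503, 831 and 1752 CPM at 6 h and 2058, 2550 and 2194 CPM at 24 h in PanCK deep dermis. In PanCK epidermis it had 2125, 2070 and 2141 CPM at 0 h, 1963, 2478 and 2630 CPM at 6 h and 693, 412 and 845 CPM at 24 h. No time overlapped another in the deep dermis, and in the epidermis 6 h overlapped 0 h while 24 h lay below both.

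The CD45 segments were not used in the choice of members, although they come from the same biopsies. At 0 h the members were somewhat lower in CD45 than in PanCK segments of the same layer, with a median ratio of CD45 over PanCK of 0.837 in deep dermis (80 members higher in CD45) and 0.736 in epidermis (32 higher in CD45). The choice set a 0 h minimum in PanCK and none in CD45, which favours this direction. Eligible probes had it too, with median 0 h levels of 82.4 CPM in CD45 and 106 CPM in PanCK deep dermis. In epidermis their medians were 87.6 CPM in CD45 and 104 CPM in PanCK. How much of a CD45 level comes from PanCK areas beside it was not tested. In CD45 epidermis the 3 mice had a summed share of 2.47%, 2.15% and 2.50% at 24 h, against 5.35%, 4.70% and 4.97% at 0 h. All 24 h values lay below all 0 h values, as in PanCK epidermis. The eligible probes' mean share there was 22.75% at 24 h, against 35.65% at 0 h. For the 1010 probes past the epidermal PanCK ratio alone it was 7.73%, against 19.95%. In CD45 deep dermis the members' shares were 4.95%, 4.26% and 6.35% at 24 h, against 3.93%, 3.95% and 3.35% at 0 h. These groups did not overlap either, but mouse 210 at 24 h was close to its 0 h value. The eligible probes' mean share in CD45 deep dermis was 30.71% at 24 h, against 29.75% at 0 h. For the 196 probes past the deep dermal PanCK ratio alone it was 3.39%, against 2.25%. The smallest two-sided p of an exact permutation in 3 mice is 0.25, and no test of the shares is given.

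Over all 244 members, the median 24 h to 0 h ratio was 0.559 in CD45 epidermis, where that of all 2188 eligible probes was 0.669 and that of the 1010 probes past the epidermal PanCK ratio alone was 0.551. In CD45 deep dermis it was 1.45, where that of eligible probes was 1.08 and that of the 196 probes past the deep dermal PanCK ratio alone was 1.47. In each layer taken singly the members were thus close to the probes that met that layer's ratio alone. In 170 members (69.7%) the mean was both lower in CD45 epidermis and higher in CD45 deep dermis, against 41% of eligible probes. Among the probes that met the epidermal PanCK ratio alone this was 38.9%, and among those that met the deep dermal ratio alone 51.5%. In 3 of 3 mice in both layers it held for 45 members (18.4%) and for 6.31% of eligible probes.

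In CD45 epidermis, 51 members fell and 6 rose at 24 h among 138 that had enough counts to be tested (edgeR's quasi-likelihood test, Benjamini-Hochberg adjustment over all tested probes, called at an adjusted p under 0.05). The falls are 37% of the tested members, against 26.9% of all tested probes called lower, and the rises 4.35%, against 25.1% called higher. The other members had too few counts to pass the filter. With no filter on low counts, 61 of all 244 members were called lower and 0 higher, against 2.05% of 20175 probes called lower. Neither background is matched for level. Members were chosen for their 0 h level in PanCK segments, while the filter can pass a probe on its 24 h level alone. The median 0 h level in CD45 epidermis was 121 CPM for members and 32.3 CPM for all probes. The called falls had log2 fold changes from -3.24 to -0.77, with a median of -1.32. All 3 mice were lower in 156 members (63.9%), against 47.3% of eligible probes, and all 3 higher in 6. At 24 h 122 of the 244 members were under 2 times the floor probes' mean in CD45 epidermis, against 11 at 0 h, and the part of this in the ratios and falls was not tested. Scaling to the floor probes called 116 members lower and 0 higher, against 542 of all 907 tested probes lower and 138 higher. This scaling shifted the log2 median over every tested probe by -0.96. Relative to that median, the tested members' median was -0.37 as scaled here and -0.40 with the floor probes. Without mouse 210, 25 of 120 tested members were called lower and 2 higher, against 126 lower and 186 higher of all 798 tested probes.

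The fall with the smallest p in CD45 epidermis was RTS0064745. It had 142, 82.9 and 107 CPM at 24 h, against 1469, 1189 and 2094 CPM at 0 h, and 1432, 2198 and 3142 CPM at 6 h. The level at 24 h was far below both earlier times in each mouse, by -3.24 on the log2 scale (SE 0.32, edgeR adjusted p = 6.06e-07). RTS0069793, which had the highest 0 h mean of all members in PanCK epidermis, had 180, 149 and 199 CPM at 24 h, against 2746, 1721 and 1553 CPM at 0 h. It fell by 2.91 (SE 0.29, edgeR adjusted p = 6.06e-07), and both falls were called under all 11 alternative settings. Of the 4 members followed above, RTS0068815 fell by 1.85 (SE 0.31, edgeR adjusted p = 0.000107) and RTS0065630 by 2.50 (SE 0.36, edgeR adjusted p = 2.75e-05). RTS0081318 did not pass (log2 fold change -0.62, edgeR adjusted p = 0.114), and RTS0063747 had 24 counts in all at 24 h and was not tested.

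A few members went up in CD45 epidermis while they were lower in PanCK epidermis. RTS0070665 had 759, 782 and 550 CPM at 24 h, against 357, 349 and 353 CPM at 0 h, in CD45 epidermis. It rose by 1.58 (SE 0.26, edgeR adjusted p = 9.81e-05). In PanCK epidermis it had 150, 206 and 201 CPM at 24 h, against 269, 300 and 361 CPM at 0 h, so the 2 kinds of epidermal segment did not overlap between times and ran in opposite directions. RTS0081138 had 489, 232 and 214 CPM at 24 h, against 49.8, 202 and 153 CPM at 0 h, in CD45 epidermis, with a log2 fold change of 1.71 (SE 0.43, edgeR adjusted p = 0.00275). In PanCK epidermis it had 162, 125 and 211 CPM at 24 h, against 299, 443 and 177 CPM at 0 h, so mouse 219 was higher at 24 h. In PanCK deep dermis mouse 210 was lower, with 89.4 CPM at 24 h against 241 CPM at 0 h. Its increase in CD45 epidermis was large in mouse 208 and small in the other 2. Neither rise was called with scaling to the floor probes (edgeR adjusted p up to 0.496 over the alternatives of RTS0070665 and up to 0.384 over those of RTS0081138).

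In CD45 deep dermis few members passed the test. Among 104 tested members 3 rose (2.88%, against 2.72% of all tested probes called higher) and 1 fell (0.962%, against 6.73% called lower). The calls are near the background and were not stable: with no filter 0 of 244 members were called, limma called 0, and there was 1 call (higher) without mouse 208, 0 without mouse 210 and 1 (lower) without mouse 219. Directions were more one-sided than calls. All 3 mice were higher in 80 members (32.8%), against 16.9% of eligible probes, and all 3 lower in 12 (4.92%), against 12.6%. The tested members' median log2 fold change was 0.45, and 0.36 relative to the median of all tested probes (0.34 with scaling to the floor probes, a scaling that shifts that median by -0.11). Depth was low here, with a median of 19 counts per member over the 3 mice at 0 h and a lowest of 5.

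RTS0068815 had 1114, 635 and 2103 CPM at 24 h, against 297, 306 and 313 CPM at 0 h, in CD45 deep dermis. The groups did not overlap, and the 24 h mice were widely spread while the 0 h mice were alike. It rose by 1.79 (SE 0.44, edgeR adjusted p = 0.0277), a call lost without any 1 of the mice (edgeR adjusted p up to 0.138 over its alternatives). RTS0069393 had 240, 558 and 465 CPM at 24 h, against 111, 139 and 85.2 CPM at 0 h, and 676, 472 and 996 CPM at 6 h. It rose by 1.79 at 24 h (SE 0.48, edgeR adjusted p = 0.0391, up to 0.339 over the alternatives), and 2 of its 3 mice were highest at 6 h. It was higher at 24 h in CD45 epidermis as well, by 0.91 (SE 0.37, edgeR adjusted p = 0.0469), a value that turned to -0.05 with scaling to the floor probes. RTS0064745 fell in CD45 deep dermis as in CD45 epidermis. It had 137, 85.2 and 318 CPM at 24 h, against 569, 613 and 597 CPM at 0 h, by -2.15 on the log2 scale (SE 0.51, edgeR adjusted p = 0.0249, up to 0.386 over the alternatives). The same probe had in PanCK deep dermis 1633, 137 and 559 CPM at 24 h, against 298, 527 and 634 CPM at 0 h. Its place among the members rested on mouse 208, the other 2 mice being lower at 24 h.

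At 6 h the members' summed share was close to its 0 h value in CD45 epidermis and close to its 24 h value in CD45 deep dermis. It averaged 5.01% ± 0.33 at 0 h, then 4.87% ± 0.64 at 6 h, and 2.37% ± 0.19 at 24 h in CD45 epidermis (SD, n = 3 each). It averaged 3.74% ± 0.34 at 0 h, then 5.21% ± 0.16 at 6 h, and 5.19% ± 1.06 at 24 h in CD45 deep dermis, and the 3 mice at 6 h (5.11%, 5.12% and 5.40%) lay above the 3 at 0 h. In single probes 1 member fell at 6 h in CD45 epidermis and 0 rose (1.43% of all tested probes were called lower and 0.551% higher by edgeR). RTS0077676 had 22.4, 91.9 and 41.3 CPM at 6 h there, against 183, 220 and 259 CPM at 0 h. It fell by 1.83 (SE 0.45, edgeR adjusted p = 0.0383, called in 4 of 11 alternatives). In CD45 deep dermis at 6 h 0 members were called in either direction by edgeR, DESeq2 or limma. Of all tested probes edgeR called 0% higher and 0.641% lower. At an unadjusted p under 0.05 edgeR counted 12 of 104 members, against 84 of all 624 tested probes.

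Grouped by their 6 h level in PanCK deep dermis, the members fell into 3 groups that were in the same order in CD45 deep dermis at 6 h. The 88 members past 1.5 at 6 h in PanCK deep dermis had a median ratio to 0 h of 1.68 at 6 h and 1.61 at 24 h in CD45 deep dermis, and 81 of them were above 0 h at 6 h. The 99 members above 0 h but not past 1.5 had medians of 1.22 and 1.38 at these times, with 72 above 0 h at 6 h. The 57 members at or below 0 h had 0.941 and 1.30, with 27 above 0 h at 6 h. All 3 groups were thus above 0 h at 24 h. In CD45 epidermis their 6 h medians were 1.05, 0.841 and 0.782, and their 24 h medians 0.595, 0.512 and 0.540. The 39 members at or above 0 h at 6 h in PanCK epidermis had a 6 h median of 1.19 in CD45 epidermis and 1.54 in CD45 deep dermis, and a 24 h median of 0.49 in CD45 epidermis. These medians come from segments of the same biopsies and are given without a test.

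The members that differed between the CD45 layers were lower in the deep dermis at 0 h with all mice in the fit, and at 24 h higher there with 1 exception. The layers were compared within biopsies over 173 tested members. The background of all tested probes is not matched for level here either. At 0 h, 11 members (6.36%) were lower in CD45 deep dermis than in CD45 epidermis, against 3.73% of all tested probes, and 0 were higher, against 4.9% (edgeR). At 24 h, 17 members (9.83%) were higher in CD45 deep dermis, against 3.65% of all tested probes, and 1 (0.578%) was lower, against 10.6% (edgeR). The called differences were from -2.78 to -0.97 at 0 h and, for the higher ones, from 0.70 to 2.27 at 24 h. Without mouse 210, 3 of 132 tested members were called lower and 1 higher at 0 h, and 3 higher and 1 lower at 24 h. Of all 877 tested probes, 24 were lower and 28 higher at 0 h, and 12 higher and 105 lower at 24 h. Without mouse 219, 4 of 202 members were called lower at 0 h and 1 higher at 24 h, against 32 and 3 of 2260 tested probes. Scaling to the floor probes called 131 members higher at 24 h, against 551 of all 1287 tested probes. This scaling shifted the log2 median over every tested probe by 1.11. The members' median relative to that median was 0.56 as scaled here and 0.55 with the floor probes.

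At 0 h, RTS0069793 had 371, 251 and 256 CPM in CD45 deep dermis, against 2746, 1721 and 1553 CPM in CD45 epidermis. The layers were far apart in each mouse, by -2.66 (SE 0.36, edgeR adjusted p = 2.38e-05). RTS0065415 had 61.9, 97.5 and 56.8 CPM in CD45 deep dermis, against 1012, 285 and 494 CPM in CD45 epidermis, by -2.78 (SE 0.45, edgeR adjusted p = 0.000136). At 24 h, RTS0068815 had the 1114, 635 and 2103 CPM given above in CD45 deep dermis, against 116, 99.5 and 229 CPM in CD45 epidermis, higher by 2.27 (SE 0.30, edgeR adjusted p = 2.46e-05). RTS0075696 had 411, 356 and 758 CPM in CD45 deep dermis, against 103, 80.5 and 107 CPM in CD45 epidermis, higher by 1.57 (SE 0.31, edgeR adjusted p = 0.00128). The 1 member lower in CD45 deep dermis at 24 h was RTS0070665, which had 463, 775 and 513 CPM there, against 759, 782 and 550 CPM in CD45 epidermis (log2 difference -0.97, SE 0.28, edgeR adjusted p = 0.0176). The layers were nearly equal in mice 210 and 219. The call was made in 6 of 11 alternatives (adjusted p up to 1.00) and was lost with no filter, with limma and without mouse 208 or mouse 219, and the difference was 0.18 with scaling to the floor probes.

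The 24 h change differed between the CD45 layers for 16 members, each more upward or less downward in the deep dermis (9.25% of 173 tested members, against 3.5% of all tested probes, edgeR), and for 0 members the other way, against 7.69% of all tested probes. At an unadjusted p under 0.05 edgeR counted 46 of the 173 members in either direction, a share similar to the 339 of all 1287 tested probes. By adjusted p, DESeq2 called 15 members and limma 14, all more upward or less downward in the deep dermis. With no filter on low counts 29 of 244 members were called higher and 0 lower, against 0.451% of 20175 probes called higher. The members are more abundant than most of these probes, so this background is again not matched for level, and the filtered one is not matched either. The differences of the 16 were from 1.46 to 4.19 on the log2 scale, with a median of 2.23. In CD45 epidermis 14 of the 16 were also called lower at 24 h, and in CD45 deep dermis 2 of the 16 were called higher. Without mouse 208 there were 20 calls, without mouse 210 there were 4, and without mouse 219 there were 3. Called higher in these settings were 54 of 1532, 10 of 877 and 7 of 2260 tested probes. Of 95 members tested in both layers, 53 had a negative change in CD45 epidermis and a positive one in CD45 deep dermis, and 1 of them was called both ways. That member is RTS0068815, whose 24 h change differed by 3.44 (SE 0.43, edgeR adjusted p = 4.21e-05, called under all 11 alternatives). RTS0065415 had 171, 108 and 807 CPM at 24 h in CD45 deep dermis, against 61.9, 97.5 and 56.8 CPM at 0 h. In CD45 epidermis it had 38.6, 40.3 and 107 CPM at 24 h, against 1012, 285 and 494 CPM at 0 h. Its 24 h change differed by 4.19 (SE 0.63, edgeR adjusted p = 0.000216, called under all 11 alternatives), with a large deep dermal increase in mouse 219 and a small one in mouse 210.

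CD45 adipose, the layer farthest from the surface, showed no common course of the members. The summed share was 4.10% ± 1.41 (SD, n = 3) at 24 h, against 3.98% ± 1.31 at 0 h, and it was 3.63% ± 1.18 in the 2 mice at 6 h. The median 24 h to 0 h ratio of the members was 1.06, where that of eligible probes was 0.99, and 38 members were higher and 25 lower in 3 of 3 mice (15.6% and 10.2%, against 13.8% and 11.5% of eligible probes). Of 91 tested members 1 rose (1.10%, against 1.31% of all tested probes) and 0 fell, against 1.07% (edgeR). At an unadjusted p under 0.05 edgeR counted 3 of the 91, against 93 of all 839 tested probes. DESeq2 called 1 member and limma 0. The member that rose by edgeR was RTS0081318, which had 620, 887 and 176 CPM at 24 h, against 55.6, 18.7 and 114 CPM at 0 h. Its log2 fold change was 3.48 (SE 0.59, edgeR adjusted p = 0.0061). It had 0 h levels of 4420, 97.5 and 142 CPM in CD45 deep dermis, where its 24 h levels of 1148, 380 and 97.8 CPM overlapped them. The adipose call was lost without mouse 208, without mouse 210, without the block and with limma (edgeR and limma adjusted p up to 0.361).

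Adipose levels also divide the members by where they are found at 0 h. The 0 h level in CD45 adipose was 0.674 times that in PanCK epidermis in the median, with a range from 0 to 2.98. In 41 members it was under 0.25, in 151 from 0.25 to 1 and in 52 members 1 or more. The 41 members scarce in adipose had the lowest median 24 h to 0 h ratio of the 3 groups in PanCK epidermis (0.357) and the highest in PanCK deep dermis (1.92). The division and the PanCK epidermis ratio both divide by the 0 h level in PanCK epidermis, so the order there is partly set by the division. The median of that level was 361 CPM for the 41, 148 CPM for the 151 and 120 CPM for the 52. The floor probes' mean there was 32.9 CPM at 24 h, and its part in these ratios was not tested. Their summed share was 0.794% ± 0.071 at 24 h against 2.53% ± 0.29 at 0 h in PanCK epidermis, and 1.92% ± 0.15 at 24 h against 0.755% ± 0.105 at 0 h in PanCK deep dermis (SD, n = 3 each). Their median 24 h to 0 h ratio was 0.318 in CD45 epidermis and 1.62 in CD45 deep dermis. In CD45 deep dermis, however, 27 of the 41 were above their 0 h level, against 125 of the 151 and 38 of the 52, and the summed share of the 41 was 0.932% ± 0.435 at 24 h, against 0.706% ± 0.255 at 0 h. The 52 members at least as abundant in adipose had 0.605 in CD45 epidermis and 1.35 in CD45 deep dermis, and their summed share in CD45 deep dermis was 1.20% ± 0.024 at 24 h, against 0.894% ± 0.187 at 0 h. RTS0063747, RTS0065630, RTS0081318 and RTS0068815 are all among the 41. The division uses the 0 h levels that also chose the members, and no test was made on it.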

How the data were processed

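Each deposited file holds whole-number counts of probes in 1 segment. Per the file headers, the authors' counts come from GeoMx NGS Pipeline (version 2.3.3.10), and no scaling step is recorded. Sources used here give neither a genome build nor the name of the probe panel. Segment counts were added up per mouse, compartment and time (44 sums) and scaled to CPM for the levels. Members were taken by the rule given in the report, with no test on the PanCK segments. The members and the lists were chosen with earlier results of these data known.

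For the CD45 sums, the quasi-likelihood test of edgeR 4.0.16 was run under R 4.3.3 (limma 3.58.1) after filterByExpr (minimum count 10) and TMM scaling, and over all probes. A probe is called when its adjusted p (Benjamini-Hochberg) is under 0.05. A compartment's 3 times were fitted together with mouse as block; the CD45 layers shared a fit with biopsy as block. The labels pair the samples, since a mouse number recurs at each time; serial biopsy of an animal is not stated in more words. Across probes, deviations from group means correlated within a mouse by a median r of 0.0173, 0.160 and 0.268 in CD45 epidermis, CD45 deep dermis and CD45 adipose. Between mice the median r was -0.0117, -0.068 and -0.113, values that are pushed below 0 because deviations sum to 0. The blocks take out differences in level between mice, or between biopsies for the layers. The p-values therefore rest on the spread that remains in the changes or layer differences over these 3 mice.

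Named members are, among those with the stated direction in 3 of 3 mice, the 2 lowest epidermal ratios and the 2 highest deep dermal ratios of other members, and in each CD45 comparison at most 2 called rises and 2 called falls by smallest p. Alternatives were DESeq2's size factors and its test (DESeq2 1.42.0), upper quartile and floor-probe scaling, no filter, limma on the mean log2(CPM + 1) of segments, segments under 12000 counts left out, no replicate block, and each mouse left out. On simulated data with 200 probes changed 4-fold, the fits recovered 81.0% in CD45 epidermis, 80.5% in CD45 deep dermis, 72.5% in adipose and 19.5% of differences between layers. In the same order, 5.81%, 5.29%, 0.685% and 2.5% of the calls were false. The simulation gave every probe the same fixed dispersion and no differences between mice. It therefore does not give the share of changes that the fits find in these data.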

Additional observations from a re-analysis of the deposited data

Results flagged for a closer look

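The 24 h change differed between CD45 deep dermis and CD45 epidermis for 16 members by the test of that difference (edgeR's quasi-likelihood test, Benjamini-Hochberg adjustment), each time with a more upward or less downward change in the deep dermis. These are 9.25% of 173 tested members, against 3.5% of all tested probes. For the other direction it was 0 members, against 7.69% of all tested probes. Without mouse 210 there were 4 calls, and without mouse 219 there were 3. Among the 16, RTS0068815 differed by 3.44 on the log2 scale and RTS0065415 by 4.19. The floor probes went up in share at 24 h in CD45 epidermis (16.6% at 24 h against 12.9% at 0 h) and less in CD45 deep dermis (12.2% at 24 h against 10.8% at 0 h), and their part in these differences was not tested. In 13 groups of segments tested for a segment far from the others in the members' summed share, none was found.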

How the results depend on the processing

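The number of members, 244, was 513 with scaling to the floor probes (all 244 among them), 408 with TMM scaling (239 shared), 37 at ratios of 0.5 and 2, and 112 at a 0 h mean of 120 CPM. The count of called members was 57 in CD45 epidermis at 24 h, and 116 with scaling to the floor probes, 33 with DESeq2's test and 27 to 49 without single mice. For the 1 call there at 6 h it was 0 with DESeq2 size factors, upper quartile scaling, no filter, DESeq2's test or limma, and 0 to 2 without single mice (the 2, without mouse 208, were rises, and the fall was lost). The 4 calls in CD45 deep dermis at 24 h became 0 with no filter or limma, 2 without segments under 12000 counts and 0 to 1 without single mice, and the 0 calls at 6 h became 1 with upper quartile and 2 with floor-probe scaling. The 1 adipose call became 0 with limma and 0 to 1 without single mice. Between layers at 0 h, 11 calls became 7 with floor-probe scaling, 5 with DESeq2's test, 3 with limma and 4 to 6 without single mice (1 of 4 without mouse 210 was higher). At 24 h, 18 became 131 with floor-probe scaling, 9 with DESeq2's test and 1 to 18 without single mice. The 16 differences of the 24 h change became 77 with floor-probe scaling, 25 with upper quartile scaling, 29 with no filter, 25 without segments under 12000 counts and 3 to 20 without single mice. With no replicate block, the paired design being dropped, calls were 2 for CD45 deep dermis at 24 h, 1 at 6 h, 0 for adipose, and 5 and 11 between layers at 0 h and 24 h; the other counts changed by less than 1.5 times. Of 16 named calls under 176 alternatives, 136 were kept, 39 kept their direction and missed the threshold, and 1 turned round, RTS0070665 between layers at 24 h (0.18 with floor-probe scaling). RTS0069393 in CD45 epidermis at 24 h, followed beside these, turned to -0.048 under the same scaling. The causes were not tested, apart from fewer mice, segments or a stricter rule where that is the setting. Depth limits single members most in CD45 deep dermis and CD45 adipose.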
